A study of Mus musculus with 7 samples.

Results

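The 10 genes described here are transcription factors and products that mark the Sertoli cell, the supporting cell of the testis cords. *Sox9*, *Sox8*, *Dmrt1*, *Gata4*, *Wt1*, *Nr5a1* and *Nr0b1* encode the factors, and *Amh*, *Ptgds* and *Cldn11* encode the products. They were chosen by symbol, and all 10 were found among the 24739 genes of the deposited RefSeq expression table. Their levels were compared in whole testes of wild-type embryos (n = 3) and of embryos homozygous for the *Glis3* zf5 allele (n = 4), collected at embryonic day (E) 14.5, with 1 pair of testes from 1 embryo per library. The labels give the strain of both groups as C57BL/6. The zf5 allele is a germline deletion that removes 1 exon of *Glis3* with parts of its neighbouring introns and disrupts DNA binding by this zinc finger factor in every cell that expresses it. Ribosomal RNA was depleted and cDNA was started from random primers, so intronic and untailed RNA was sequenced beside mRNA.

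In the fetal testis, transient *Sry* expression is followed by lasting *Sox9* expression in the supporting cell lineage, and SOX9 acts with SOX8, NR5A1, GATA4 and WT1 on Sertoli cell genes. The best known of these targets is *Amh*, whose hormone makes the Müllerian ducts regress. NR0B1 is an orphan nuclear receptor that opposes NR5A1, and DMRT1 later keeps Sertoli cells from turning toward the ovarian fate and is also made in germ cells. *Ptgds* encodes the prostaglandin D2 synthase that takes part in a loop with *Sox9*, and *Cldn11* encodes a claudin of the tight junctions between Sertoli cells. *Nr5a1* and *Gata4* are also expressed in fetal Leydig cells, the androgen-producing cells between the cords.

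The mutated gene was examined first. *Glis3* had 7.63, 6.89 and 2.91 FPKM (fragments relative to the length of the transcript and the size of the library) in WT rep1, rep2 and rep3, against 3.86, 3.26, 2.90 and 2.66 FPKM in the 4 mutants, in the order of their labels, as for all values per library in what follows. The third wild-type value lay inside the range of the mutants, although FPKM covers the whole gene with exons that the allele keeps. The summed FPKM of 10 germ cell markers reached 1418 in WT rep1 and 1110 in WT rep2, whereas WT rep3 had 606 and the mutants had 491 to 656. Marker by marker, WT rep3 was above every mutant for *Ddx4* (53.1 FPKM against 33.6 to 42.2 FPKM), *Dazl*, *Sox2* and *Sall4*. It lay inside the range of the mutants for the other markers. These values put the genotype label of that library in doubt. Reads inside the deleted part of *Glis3* were not examined, so whether the label is right was not tested. The library is therefore named by its label, and every wild-type mean, SD and fold change over n = 3 includes it. The main results are also given without it. The sum of FPKM over all genes reached from 694243 to 1018678 per library. The number of fragments behind an FPKM value is unknown.

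The upstream sequences of *Nr0b1* and *Ptgds* are shown because, among the 10 genes, this pair followed each other most closely over the 7 libraries (Pearson r 0.95). RefSeq promoter sequences (GRCm38.p6, the build of mm10) were at hand for 4 of the 10 genes, *Ptgds*, *Cldn11*, *Sox8* and *Nr0b1*. The 250 bases before the gene start of *Nr0b1* lie at chrX:86191525-86191774 on the plus strand, and those of *Ptgds* at chr2:25469750-25469999 on the minus strand. Both are written 5′ to 3′ along the gene, and capitals mark matches to the letters searched.
Nr0b1: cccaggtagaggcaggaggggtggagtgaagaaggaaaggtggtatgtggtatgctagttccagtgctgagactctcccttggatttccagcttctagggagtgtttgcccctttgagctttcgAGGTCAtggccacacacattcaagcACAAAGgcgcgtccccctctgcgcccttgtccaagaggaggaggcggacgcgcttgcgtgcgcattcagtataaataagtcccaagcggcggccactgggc
Ptgds: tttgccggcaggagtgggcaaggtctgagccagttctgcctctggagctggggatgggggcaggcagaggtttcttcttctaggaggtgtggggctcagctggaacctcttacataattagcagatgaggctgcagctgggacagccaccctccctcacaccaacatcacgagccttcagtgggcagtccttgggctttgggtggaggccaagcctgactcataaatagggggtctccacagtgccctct

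Letters of binding motifs were searched on both strands of these windows. For SOX factors the letters were AACAAT and the related ACAAAG, and for NR5A1 they were AAGGNCA. For GATA factors they were AGATAA, its variant in the last base AGATAG, its variant in the first base TGATAA and the double variant TGATAG. For WT1 the search used GCGNGGG, for DMRT1 the palindrome-like ACANTGT, and for GLIS3 the run GGGGGGT. Of the 4 windows, 1 held a match, ACAAAG at positions -101 to -96 of *Nr0b1*, counted back from the gene start. The SOX letters occurred in 24.0% of 32851 promoters of the same length, the NR5A1 letters in 17.5%, the GATA letters in 26.5%, the WT1 letters in 20.3%, the DMRT1 letters in 6.47% and the GLIS3 letters in 4.65%. The nuclear receptor half-site AGGTCA, which overlaps the NR5A1 letters and was searched only after the *Nr0b1* sequence had been read, was found at -126 to -121 of *Nr0b1* and in 14.0% of all promoters. These matches describe letters in a window and are no evidence of binding.

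The genes kept nearly the same order of levels in every library. FPKM is scaled to transcript length, so levels of different genes can be set side by side. *Amh* was the highest of the 10 in each of the 7 libraries, with 151 FPKM on average, followed by *Ptgds* (103 FPKM), *Nr5a1* (74.5 FPKM), *Gata4* (48.2 FPKM) and *Wt1* (31.3 FPKM), and each of these 5 was above the next in 7 of 7 libraries. *Cldn11* (15.1 FPKM) was above *Dmrt1* (13.9 FPKM) in 5 of 7 libraries, so the order of these neighbours was not the same in every library. The 3 lowest, *Nr0b1* (7.71 FPKM), *Sox9* (7.22 FPKM) and *Sox8* (5.15 FPKM), were also not fully separated: *Nr0b1* was above *Sox9* in 6 of 7 libraries and *Sox9* above *Sox8* in 6 of 7. The highest library of a gene had between 1.42 times (*Gata4*) and 2.01 times (*Amh*) the FPKM of its lowest library. *Sry* was at 0 to 0.0292 FPKM and the granulosa cell factor *Foxl2* at 0 to 0.0964 FPKM, so neither the early switch gene nor this ovarian marker was present at a level comparable with the 10 genes.

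**Figure D1:**
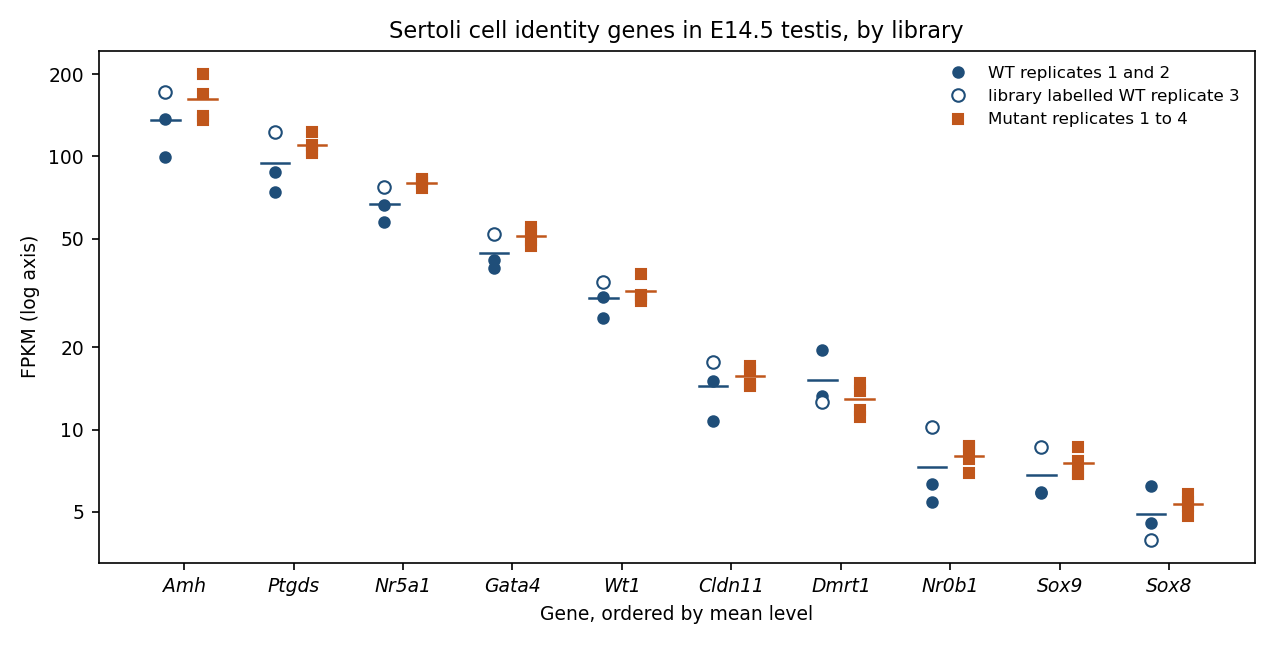
FPKM (log axis) of each gene in the 3 wild-type libraries (circles, with the library labelled WT rep3 open) and the 4 mutant libraries (squares), with group means as lines. *Amh* lies highest in every library, and the groups overlap for all 10 genes. The SD is larger in wild-type than in mutant testes in all 10 genes with the open circles and in 5 of 10 without them.

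Across the genotypes, 9 of the 10 genes had a higher mean log2 level in mutant testes and *Dmrt1* had a lower one, but none of the 10 passed the test. The test was limma on log2(FPKM + 0.5). It took in the 13988 genes whose mean reached 0.5 FPKM, among them all 10, with Benjamini-Hochberg adjustment of their p-values together, and a gene passed at an adjusted p under 0.05. In this comparison 1 gene of 13988 (0.00715%) passed, so the count of 0 of 10 does not set these genes apart. At an unadjusted p under 0.05, 1 of the 10 was higher and 0 were lower, beside 8.21% and 8.79% of all genes. Groups that do not overlap were found for 0 of the 10 genes, beside 7.31% of all genes with every mutant library higher and 7.59% with every mutant library lower. The median log2 fold change of the 10 genes was 0.16, beside 0.01 over all genes tested. In RNA from whole testes, fewer cells of a type and less RNA per cell cannot be told apart.

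Among the transcription factors, *Nr5a1*, the orphan nuclear receptor that activates steroidogenic genes and *Amh*, had the clearest difference. Its FPKM was 57.7, 66.3 and 77.04 in WT testes against 82.3, 79.96, 76.3 and 82.1 in mutant testes. The 4 mutant values lay close together, and the library labelled WT rep3 was above the lowest of them, so the groups overlapped. The means were 67.0 ± 9.71 FPKM (SD, n = 3) and 80.2 ± 2.80 FPKM (SD, n = 4), a log2 fold change of 0.27 with a standard error of 0.09. Its 95% interval of 0.05 to 0.48 was the only 1 of the 10 that left out 0, while the adjusted p from limma was 0.225 (two-sided exact permutation test, p = 0.0571, where the smallest possible is 0.0286). The gene lies on chromosome 2 of mm10 from 38692660 to 38714542. The summed FPKM of 8 fetal Leydig cell markers, a cell type that also expresses *Nr5a1*, was 1661 to 2727 in WT against 2572 to 3160 in mutant testes, and their part in the *Nr5a1* values was not tested.

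*Gata4*, a zinc finger factor that works with NR5A1 on the *Amh* promoter, lies on chromosome 14 from 63198915 to 63245260. It had 41.9, 39.03 and 51.9 FPKM in WT testes against 55.2, 52.8, 49.4 and 47.1 FPKM in mutant testes. Wild-type embryos 1 and 2 lay below all mutants, and the library labelled WT rep3 lay among them. The log2 fold change of 0.21 had an interval of -0.02 to 0.45 and an adjusted p of 0.335 from limma (exact permutation test, p = 0.143).

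*Sox9*, the central factor of Sertoli cell differentiation, lies on chromosome 11 from 112782210 to 112787757. It had 5.90, 5.84 and 8.65 FPKM in WT testes against 6.90, 6.96, 8.62 and 7.65 FPKM in mutant testes. Its lowest values were in wild-type embryos 1 and 2, and its highest was in the library labelled WT rep3. Its log2 fold change was 0.16, with an interval of -0.17 to 0.49 and an adjusted p of 0.611 from limma (exact permutation test, p = 0.4). The interval gives the changes that these values leave possible and is not a limit of detection.

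*Sox8*, a relative of *Sox9* with overlapping function, lies on chromosome 17 from 25565893 to 25570686. Its order of libraries was another one, with 6.22, 4.55 and 3.96 FPKM in WT against 5.79, 5.43, 5.27 and 4.81 FPKM in mutant testes. Here the library labelled WT rep3 was the lowest of the 7 and wild-type replicate 1 the highest. This gave a log2 fold change of 0.13 (interval -0.19 to 0.45, adjusted p = 0.681 from limma). The ratio of *Sox9* to *Sox8* FPKM was 0.948, 1.28 and 2.19 in WT testes against 1.19, 1.28, 1.64 and 1.59 in mutant testes, and the log2 ratio did not differ beyond its spread (difference 0.03, exact permutation test, p = 0.943).

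*Nr0b1* (chromosome X, 86191775 to 86195944) had 5.44, 6.31 and 10.2 FPKM in WT against 6.93, 7.79, 8.63 and 8.69 FPKM in mutant testes. All mutant values lay between wild-type replicate 2 and the library labelled WT rep3. On the log2 scale the difference was 0.16, with the widest interval of the 7 factors, from -0.27 to 0.60 (adjusted p = 0.691 from limma).

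*Wt1*, a zinc finger factor that the gonad needs from its first outgrowth, lies on chromosome 2 from 105126529 to 105173614. It had 30.5, 25.6 and 34.6 FPKM in WT against 29.4, 37.2, 30.4 and 31.1 FPKM in mutant testes. The groups lay over each other, with the lowest value in wild-type replicate 2 and the highest in mutant replicate 2. The log2 fold change of 0.09 was the smallest in size of the 10 (interval -0.18 to 0.35, adjusted p = 0.735 from limma).

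*Dmrt1* (chromosome 19, 25505706 to 25604328) was the gene with a lower mean in mutant testes. It had 19.6, 13.3 and 12.6 FPKM in WT against 13.9, 11.1, 14.9 and 11.8 FPKM in mutant testes. Wild-type replicate 1 stood above the other 6 libraries, which did not separate by genotype. Its log2 fold change was -0.20 (interval -0.57 to 0.17, adjusted p = 0.546 from limma), and it was -0.01 without wild-type replicate 1. Relative to the mean log2 level of the other 9 genes in the same library, *Dmrt1* was at -0.74 ± 0.48 (SD, n = 3) in WT against -1.13 ± 0.18 (SD, n = 4) in mutant testes (difference -0.39, exact permutation test, p = 0.171). This was the smallest p among the 10 genes compared in this way. *Dmrt1* is also made in germ cells, and all 10 germ cell markers had lower means in mutant testes, with a median log2 fold change of -0.85. The part of germ cells in the *Dmrt1* values was not tested.

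The 3 products had higher means in mutant testes without passing the test. *Amh* (chromosome 10, 80805248 to 80807648) had 137, 99.8 and 172 FPKM in WT against 136, 141, 200.1 and 169.6 FPKM in mutant testes. Its lowest value was in wild-type replicate 2 and its highest in mutant replicate 3, and mutant replicate 1 was level with wild-type replicate 1. The means were 136 ± 35.9 FPKM (SD, n = 3) and 162 ± 29.6 FPKM (SD, n = 4), a log2 fold change of 0.27 with an interval of -0.18 to 0.71 (adjusted p = 0.511 from limma).

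*Ptgds* (chromosome 2, 25466712 to 25469749) had 74.3, 87.8 and 122.3 FPKM in WT against 103, 104, 122.4 and 109.6 FPKM in mutant testes. Wild-type embryos 1 and 2 were below all mutants, and the library labelled WT rep3 was level with the highest mutant. This gave a log2 fold change of 0.24 (interval -0.11 to 0.59, adjusted p = 0.452 from limma). *Cldn11* (chromosome 3, 31149920 to 31164326) had 15.1, 10.7 and 17.6 FPKM in WT against 14.4, 17.04, 16.4 and 14.7 FPKM in mutant testes. All mutant values lay inside the range of the wild-type libraries. On the log2 scale the difference was 0.13 (interval -0.21 to 0.48, adjusted p = 0.690 from limma).

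With the library labelled WT rep3 included, the SD was larger in wild-type than in mutant testes in all 10 genes. Without it, the SD of the 2 wild-type libraries left was larger in 5 of the 10. The library labelled WT rep3 had the highest of all 7 values in 3 genes (*Sox9*, *Nr0b1* and *Cldn11*), and wild-type replicate 1 or 2 had the lowest in 8. The summed FPKM of the 10 genes was 393, 359 and 510.3 in WT testes against 454, 464, 532 and 487 in mutant testes.

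The library labelled WT rep3 was singled out from its values, so p-values without it follow a choice made from the data. Leaving it out changed the call of 2 of the 10 genes and raised the calls over all genes from 1 to 720. The median log2 fold change of the 10 was then 0.33 in place of 0.16, and that of all genes was 0.01 in both fits. Of the 10 genes 2 passed the threshold, *Nr5a1* and *Ptgds*, both higher in mutant testes, beside 1.16% of all genes called higher and 3.99% called lower in this fit. *Nr5a1* had a log2 fold change of 0.37 (interval 0.20 to 0.55) and an adjusted limma p of 0.0363 (0.0363 to 0.469 over the settings tried). *Ptgds* had a log2 fold change of 0.44 (interval 0.21 to 0.67) and an adjusted p of 0.0477 (0.0477 to 0.836 over the settings). *Gata4* (0.33, adjusted p = 0.0592) and *Nr0b1* (0.41, adjusted p = 0.0845) stayed short of the threshold, with adjusted p-values of up to 0.589 and 0.987 over the settings. At an unadjusted p under 0.05, 6 of the 10 were higher, beside 10.5% of all genes, and 0 were lower, beside 13.1%. In 5 of the 10, *Sox9*, *Gata4*, *Nr5a1*, *Nr0b1* and *Ptgds*, every mutant library was then above both wild-type libraries, beside 15.6% of all genes. *Sox8* had a log2 fold change of -0.00 and *Dmrt1* one of -0.32 in this fit (adjusted p = 0.992 and 0.305, the second from a range of 0.305 to 0.979). In other fits that library was kept. The median of the 10 was 0.13 without wild-type replicate 1 and 0.08 without wild-type replicate 2, and 0 of them passed in either fit.

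**Figure D2:**
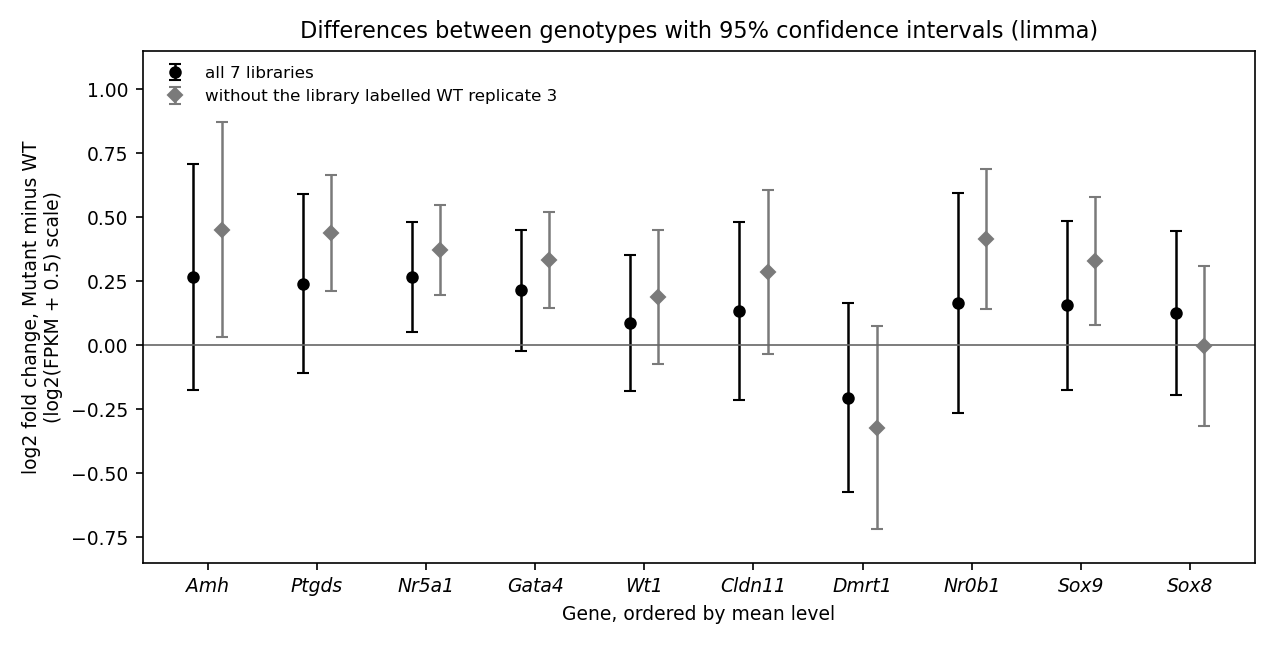
Log2 fold changes, mutant minus wild-type, with 95% confidence intervals from limma for all 7 libraries (circles) and without the library labelled WT rep3 (diamonds). With all libraries the interval of *Nr5a1* alone leaves out 0, and without that library the intervals of 6 genes do.

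Several of the genes varied together from library to library. All 45 pairs were compared over the 7 libraries on the log2 scale, with exact permutation tests over 5040 orders and Benjamini-Hochberg adjustment over the 45 pairs. Of these, 4 passed, all of them positive. *Nr0b1* and *Ptgds* had a Pearson r of 0.95 (permutation p = 0.000794, adjusted p = 0.0208) and a Spearman rho of 0.89 (p = 0.0123, adjusted p = 0.111). Without the 2 libraries farthest from the median of *Nr0b1*, r was 0.90. *Sox9* and *Ptgds* had an r of 0.94 (permutation p = 0.00119, adjusted p = 0.0208) and a rho of 0.93 (p = 0.00675, adjusted p = 0.101), with r at 0.90 without the 2 farthest libraries. *Sox9* and *Nr0b1* had an r of 0.93 (permutation p = 0.00357, adjusted p = 0.0402) and the same rho, with r at 0.93 without the 2 farthest. *Sox9* and *Amh* had an r of 0.89 (permutation p = 0.00139, adjusted p = 0.0208) and again a rho of 0.93, with r at 0.81 without the 2 farthest. Without the library labelled WT rep3, these 4 values of r were 0.95, 0.93, 0.91 and 0.90. None of the 45 rho values passed the adjustment. After the mean of each genotype had been removed, a check added once the data had been seen, the same 4 values of r were 0.96, 0.93, 0.93 and 0.87. Libraries share the scaling of their FPKM values, which moves all genes of a library together. The share of passing pairs among other genes was not computed, so the count of 4 does not set these genes apart.

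*Dmrt1* and *Sox8* stood apart from that pattern. *Dmrt1* had its lowest r with *Nr5a1*, at -0.79 (permutation p = 0.0423, adjusted p = 0.211; rho -0.54, p = 0.236, adjusted p = 0.558), and r was -0.20 without the 2 libraries farthest from its median, so the relation rested on those. *Sox8* had an r of -0.46 with *Sox9* (permutation p = 0.296, adjusted p = 0.430) and a rho of -0.43 (permutation p = 0.354, adjusted p = 0.663). This r was -0.15 without the 2 libraries farthest from the median of *Sox9*. The lowest r of *Sox8* was with *Nr0b1*, at -0.68 (permutation p = 0.0917, adjusted p = 0.258). It was 0.13 without the 2 libraries farthest from the median of *Sox8*, and -0.87 after the mean of each genotype had been removed. Of the 45 pairs, 31 had an r above 0 and 14 an r below 0.

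**Figure D3:**
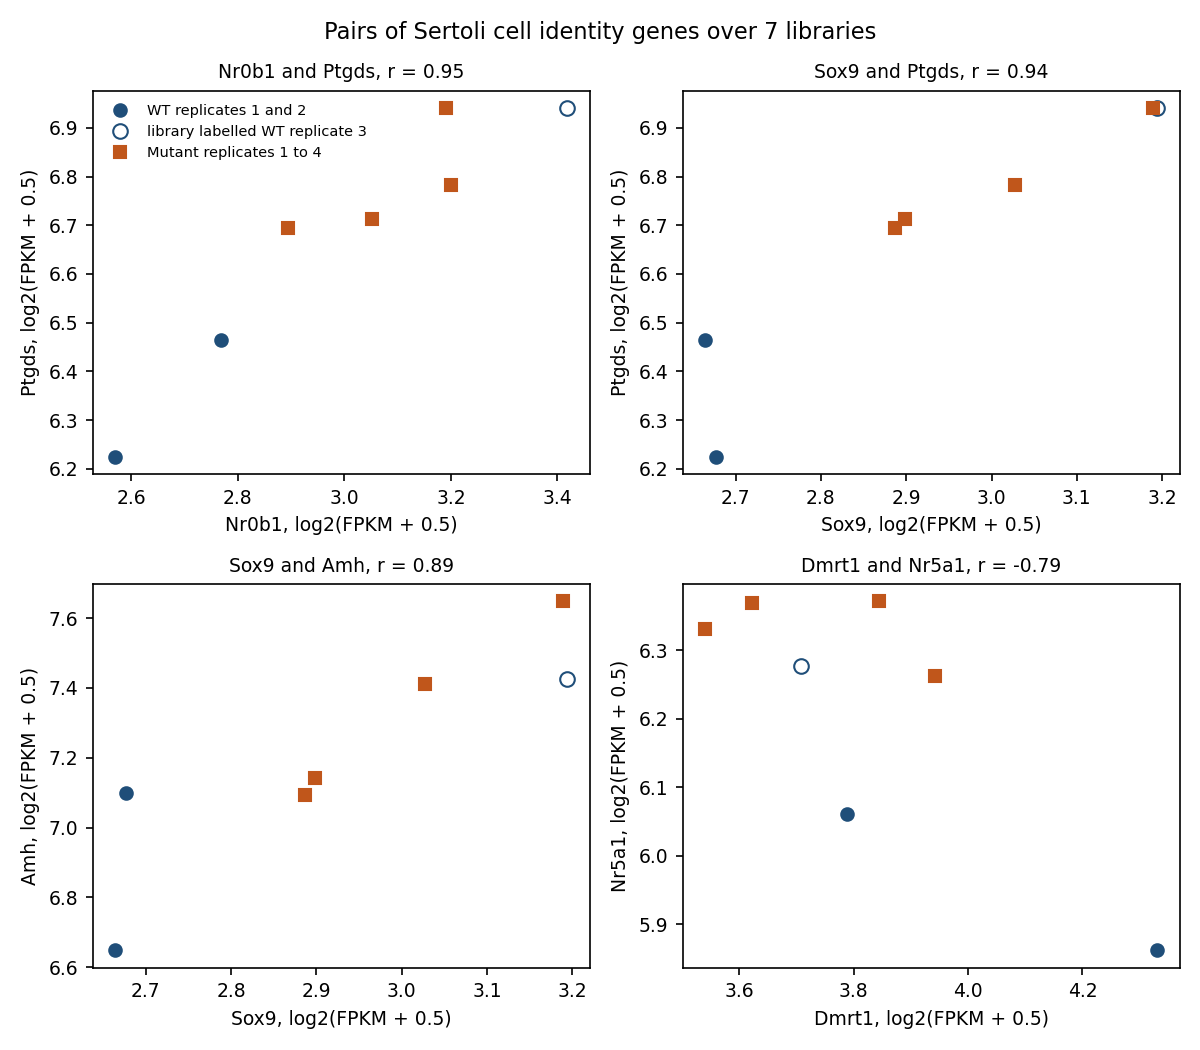
Log2(FPKM + 0.5) of 4 pairs of genes in the 7 libraries, with the library labelled WT rep3 as an open circle and r in each panel title. In the first 3 panels wild-type embryos 1 and 2 lie at the low end of both axes, except for *Amh*. On the *Amh* axis wild-type embryo 1 is level with mutant replicate 1. In these panels the open circle lies among or beyond the highest mutants. In the fourth, wild-type replicate 1 lies alone at high *Dmrt1* and low *Nr5a1*.

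Genes outside the 10 that were most alike were looked for among 11537 genes whose mean reached 2 FPKM, as a description over 7 libraries. The 3 nearest to *Sox9* were *Cmtm7* (r 0.99, rho 1), *Pvrl2* (r 0.98, rho 0.96) and *Kcnt1* (r 0.97, rho 1). Nearest to *Amh* were *Ppp1r16b* (r 0.98, rho 0.89), *Map2k6* (r 0.97, rho 0.89) and *BC005624* (r 0.97, rho 0.96). Nearest to *Nr5a1* were *Tsen34* (r 0.99, rho 0.93), *Decr1* (r 0.99, rho 1) and *Arl10* (r 0.99, rho 0.82). These are the highest of 11537 values for each gene and were picked as such.

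Reads of retrotransposon copies inside the genes gave a second reading of the same libraries, made by the authors apart from FPKM. LINE, SINE and LTR copies in introns are sequenced when unspliced RNA of the host gene is present, and the reads were summed over each gene body. *Sox9*, *Sox8*, *Nr0b1* and *Amh* held no such copy with reads. In the test by edgeR, 1 of 12267 gene bodies (0.00815%) passed a threshold of 0.05, and none of the 6 tested here did; 0 of the 6 had an unadjusted p under 0.05, beside 12.6% of all gene bodies. Over the settings tried, DESeq2 included, the lowest adjusted p of these 6 was 0.274.

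*Nr5a1* held 11 copies with reads, at 43.6, 51.01 and 55.6 CPM (reads scaled to library size) in WT against 61.2, 61.2, 69.7 and 46.6 CPM in mutant testes. The log2 fold change of 0.26 (adjusted p = 0.478 from edgeR; exact permutation test, p = 0.171) stood beside 0.27 for its FPKM. *Gata4* held 62 copies, at 310.2, 348 and 419 CPM in WT against 453, 409.5, 402 and 345 CPM in mutant testes (log2 fold change 0.16, adjusted p = 0.587 from edgeR). Of its reads, 46.0% fell on 1 LTR103b_Mam copy at chromosome 14, 63199746 to 63199900, which touches an exon, so this sum can also count mature mRNA. *Wt1* held 45 copies, of which none of the 3 with most reads touched an exon, at 441, 457 and 519 CPM in WT against 449, 534, 446 and 463 CPM in mutant testes (log2 fold change 0.00, adjusted p = 0.997 from edgeR). *Dmrt1*, with 104 copies, 103 of them intronic, had 30.2, 32.4 and 24.3 CPM in WT against 24.1, 24.4, 31.5 and 24.1 CPM in mutant testes (log2 fold change -0.15, adjusted p = 0.749 from edgeR). The single copy in *Ptgds* had 12 to 21 reads per library and the 12 copies in *Cldn11* had 4 to 17, too few for a firm statement (log2 fold changes 0.54 and -0.00, adjusted p = 0.474 and 0.998 from edgeR).

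Other genes of the Sertoli cell were taken from lists chosen by function. Of 20 further Sertoli cell products, 18 had a higher and 2 a lower mean in mutant testes, and the median log2 fold change was 0.22. None passed the threshold, 8 were higher and 0 lower at an unadjusted p under 0.05, beside 8.21% and 8.79% of all genes, and in 7 every mutant library was above every wild-type library, beside 7.31%. The 2 with the smallest p were *Pdgfa* and *Defb19*. *Pdgfa*, a growth factor that Sertoli cells send to interstitial cells, had 20.2, 21.9 and 18.5 FPKM in WT against 28.1, 29.3, 26.1 and 27.7 FPKM in mutant testes, with a log2 fold change of 0.45 (adjusted p = 0.112 from limma, and 0.0286 without the library labelled WT rep3, the lowest of 0.0286 to 0.350 over the settings). *Defb19*, a defensin gene, had 758, 809.9 and 779 FPKM in WT against 911, 1057, 1019 and 1043 FPKM in mutant testes (log2 fold change 0.36, adjusted p = 0.168); with quantile normalization the log2 fold change was 0.14 (adjusted p = 0.396, within 0.0789 to 0.396 over the settings). *Inha*, the inhibin alpha subunit gene, was named after its values were seen: its FPKM was 130.0, 199.8 and 185 in WT against 257, 247, 238 and 254 in mutant testes (log2 fold change 0.56, adjusted p = 0.169). In these 3 genes the library labelled WT rep3 lay below every mutant library. The summed FPKM of the 20 products was 2455 to 2603 in WT against 2908 to 3104 in mutant testes. Abundant genes weigh most in this sum: *Defb19* had means of 782 and 1008 FPKM in WT and mutant testes, and *Cst9* had 603 and 729 FPKM.

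Of 17 further factors and signals of testis determination, 16 were tested, 7 with a higher and 9 with a lower mean, and the median log2 fold change was -0.08. None passed, and 0 were higher and 3 lower at an unadjusted p under 0.05, beside 8.21% and 8.79% of all genes. *Kdm3a*, the histone demethylase that opens *Sry*, had 33.9, 38.2 and 28.1 FPKM in WT against 26.4, 26.3, 23.8 and 24.3 FPKM in mutant testes, with a log2 fold change of -0.39 (adjusted p = 0.177 from limma, and 0.0161 without the library labelled WT rep3, the lowest of 0.0161 to 0.386). *Six4*, a homeobox factor upstream of *Nr5a1* in the early gonad, had 8.44, 5.43 and 4.28 FPKM in WT against 3.82, 3.15, 3.84 and 3.05 FPKM in mutant testes (log2 fold change -0.68, adjusted p = 0.186, and 0.0346 without that library, the lowest of 0.0346 to 0.380). In 3 of the 16 every mutant library was below every wild-type library, beside 7.59% of all genes, and in 0 every one was above, beside 7.31%. *Kdm3a* and *Six4*, named for the smallest p of this list, were among these 3. Without the library labelled WT rep3, 1 gene of this list passed as higher and 3 as lower, beside 1.16% and 3.99% of all genes.

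None of the partners of the products passed the test. In the AMH pathway, 8 of 8 receptors and SMADs were tested, 4 higher and 4 lower, none past the threshold, with log2 fold changes from -0.07 to 0.21; those with the smallest p were *Smad1* (0.18, adjusted p = 0.329 from limma) and *Acvr1* (0.14, adjusted p = 0.412). In the prostaglandin D2 pathway, 2 of 5 genes were expressed enough to be tested, *Ptgs1* with a log2 fold change of 0.08 and *Hpgds* with one of -0.01 (adjusted p = 0.736 and 0.979). Of 8 genes of Sertoli cell junctions, 7 were tested and none passed; *Gja1*, the connexin of Sertoli cell gap junctions, had 72.8, 102 and 104 FPKM in WT against 116.2, 116.5, 110.5 and 108 FPKM in mutant testes (log2 fold change 0.30, adjusted p = 0.270), and *Tjp1* had a log2 fold change of -0.20 (adjusted p = 0.385).

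Markers of other cell types were read in the same fit, in which none passed. A list named for a cell type does not show that its cells were present. All 10 germ cell markers were lower, 8 of them with an unadjusted p under 0.05, beside 8.79% of all genes. In 4 of the 10 every mutant library was below every wild-type library, WT rep3 included, beside 7.59% of all genes. Without the library labelled WT rep3, 7 of them passed, beside 3.99% of all genes called lower. Of 8 fetal Leydig cell markers 7 were higher, 6 of them at an unadjusted p under 0.05 (8.21% of all genes), and the median log2 fold change of the 8 was 0.44. Of 8 interstitial and peritubular markers 6 were higher (median 0.18; summed FPKM 479 to 607 in WT against 576 to 711 in mutant testes). The medians were -0.02 for 5 endothelial, 0.19 for 3 macrophage, 0.14 for 4 granulosa, -0.18 for 3 blood, -0.38 for 2 mesonephric and 0.37 for 3 adrenal cortex markers. The 2 mesonephric genes tested differed, with log2 fold changes of 0.04 for *Pax8* and -0.79 for *Lhx1*. The paper also lists *Lhx1* with undifferentiated spermatogonia, so this median is no measure of mesonephric tissue. The summed FPKM of granulosa markers was 16.4 to 18.1 in WT against 17.9 to 21.6 in mutant testes, and the mesonephric factor *Pax2* was at 0 to 0.0163 FPKM. The part of other cell types in the values of the 10 genes was not tested.

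**Figure D4:**
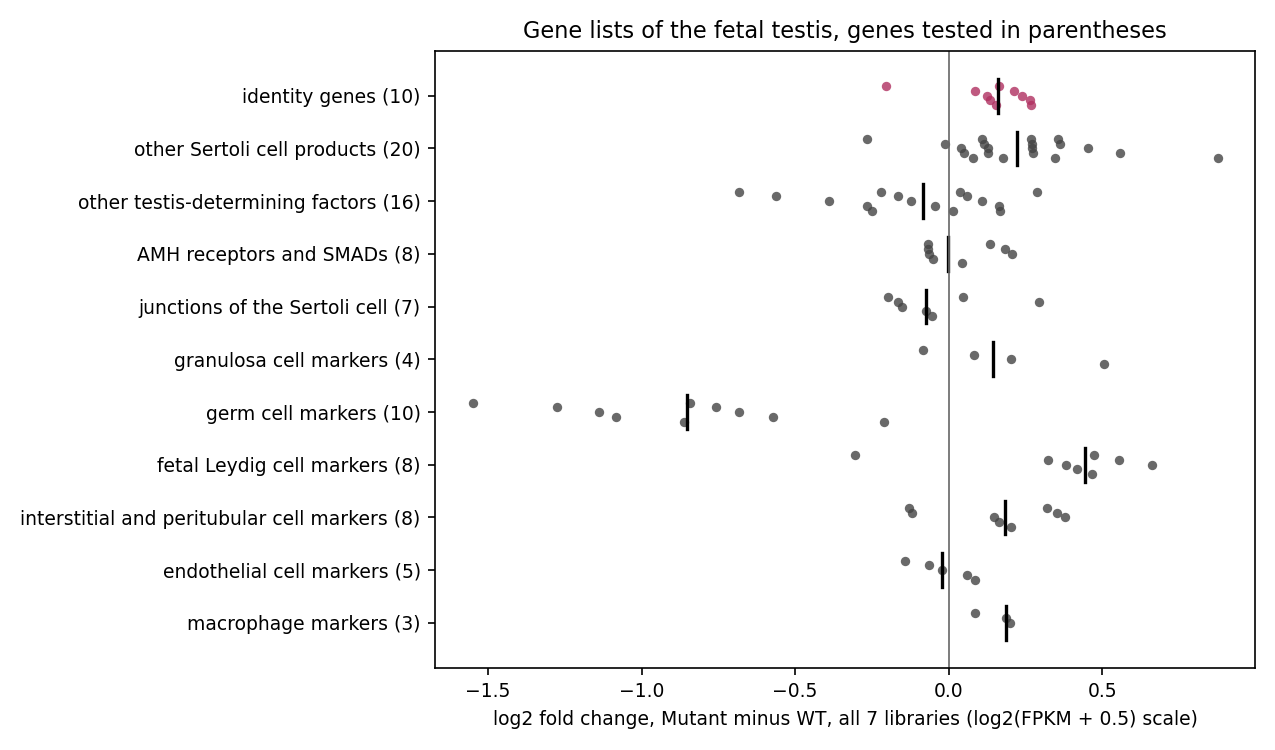
Log2 fold changes, mutant minus wild-type, over all 7 libraries for each gene tested (points) with the median of each list (bars). The 10 identity genes lie between -0.20 and 0.27, the germ cell markers between -1.55 and -0.21, and none of the genes shown passed the threshold over all genes.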

How the data were processed

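RNA-Seq of whole E14.5 testes was used, from 3 embryos labelled WT and 4 labelled Mutant. The authors aligned reads to mm10 without strand using TopHat2 2.0.12 and made FPKM values per RefSeq gene with Cuffnorm; the deposited FPKM values carry the library scaling of that workflow. The submitters' processing notes also name Cuffdiff 2.1.1, whose comparison needs aligned reads and was not run. The authors made the deposited counts of uniquely mapped reads per LINE, SINE and LTR copy with HTSeq, and these are not normalized. Both tables lack a tab between 2 column names, so columns were read by position in the order of the names.

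Tests used limma 3.58.1 (lmFit, eBayes with a trend, pseudocount 0.5, mean of at least 0.5 FPKM) and edgeR 4.0.16 (TMM, quasi-likelihood, mean of at least 10 reads) in R 4.3.3, two-sided, with Benjamini-Hochberg adjustment over all features and a threshold of 0.05. Single values used exact permutation over 35 splits. Copies were counted where they lay in 1 gene only (bedtools 2.31.1), and other steps ran in Python 3.11.15. The tests were tried on simulated data. Replicates are separate embryos. Correlations of deviations between libraries with the same number in both groups were 0.20, -0.18 and 0.23. For different numbers they ranged from -0.30 to 0.17, so the same numbers did not pair the libraries steadily. The genes and lists were chosen with earlier results of these data known, and the comparisons of pairs of genes, of *Sox9* with *Sox8* and of each gene with the other 9 were added after values had been seen. Named were all 10 genes, *Glis3*, from each list the genes past the threshold or else the 2 with the smallest p (given for lists of Sertoli cell function), a few cell markers, and the 3 genes most alike to *Sox9*, *Amh* and *Nr5a1*. Alternatives for FPKM were a pseudocount of 0.1 or of 1, all genes unfiltered, a minimum mean of 2 FPKM, centring on the median, quantile normalization, array weights, a variance without trend, a replicate block and omission of each library. For repeat reads they were DESeq2 1.42.0, its size factors in edgeR, raw library size, all gene bodies unfiltered, a minimum mean of 50 reads, the block and omission of each library.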

Additional observations from a re-analysis of the deposited data

Results flagged for a closer look

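In mutant replicate 3 the repeat reads in the gene body of *Dmrt1* were at 31.5 CPM, against 24.1 to 24.4 CPM in the other 3 mutant libraries. The gap to the nearest library was 0.956 of the range of the 4, larger than Dixon's 95% limit for 4 samples. Such a gap was looked for in 16 sets of 4 mutant values, and chance gives about 1 in 20. The FPKM of *Dmrt1* was also highest among the mutants in that library, at 14.9.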

How the results depend on the processing

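For the 10 genes, 156 of 160 fold changes under the 16 alternatives kept the direction found with all libraries. The 4 that turned came from leaving out 1 library. *Sox8* was at -0.0031 without WT rep3, within -0.0031 to 0.29 when each library was left out; *Wt1* at -0.025 (to 0.19) and *Cldn11* at -0.061 (to 0.28) without WT rep2; and *Nr0b1* at -0.0096 (to 0.41) without WT rep1. The median of the 10 ranged from 0.08 (without WT rep2) to 0.33 (without WT rep3) when 1 library was left out, their calls from 0 to 2, and the calls over all genes from 1 to 720, the last without WT rep3. Calls over all genes were 4 without a filter and 3 with quantile normalization. For repeat reads, calls ranged from 0 to 138 when 1 library was left out and were 48 with DESeq2 and 47 without a filter. The fold change of *Wt1* repeat reads turned to -0.015 without a filter and ranged from -0.061 to 0.075 when 1 library was left out. That of *Cldn11* repeat reads turned to 0.00069 with DESeq2 and 0.055 with the block, and ranged from -0.39 to 0.46. The cause of these changes was not tested.

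With the replicate block, 0 genes and 0 gene bodies passed. Replicate numbers are shared by the groups, but the correlations of the same numbers differed in sign, so this fit is not read as a measure of the effect. FPKM values give no depth, and with 3 and 4 libraries the 95% intervals of the 10 genes were 0.43 to 0.88 wide on the log2 scale.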
